A study of Mus musculus with 10 samples.

Results

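The immunoglobulin light chain genes of the mouse comprise the variable (V), joining (J) and constant (C) segments of the kappa locus on chromosome 6 and of the lambda locus on chromosome 16. They were taken as all genes of the GENCODE M21 annotation whose symbols begin with Igkv, Igkj, Iglv, Iglj or Iglc, together with Igkc, which gave 178 of 55494 genes: 166 kappa genes (160 V segments, 5 J segments and Igkc) and 12 lambda genes (3 V segments, 5 J segments and 4 constant genes). RNA had been sequenced from leukemia initiating cells, which were FACS-sorted from spleens of mouse pups that carry the RFP/RET transgene (the Eμ-Ret or Eu-RET strain, named for the immunoglobulin heavy chain enhancer). The control group of 5 pups received 50 µl of PBS. The other group of 5 pups received 20 µg of Poly(A:U), a made double-stranded RNA sensed by Toll-like receptor 3. Cells were collected 7 days after treatment, at an age labelled as 13 days. The question of the study was the effect of Poly(A:U) on these cells. Both groups carry the transgene, so neither is a sample of normal precursors, and each library came from a separate pup per the series' design text.

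A light chain gene is assembled during B cell development by recombination of a V segment with a J segment, after the heavy chain gene has been joined. Before that step, the heavy chain pairs with a surrogate light chain made of Vpreb and Igll1 (lambda 5) proteins to form the pre-B cell receptor, which signals the move to light chain recombination. Unjoined segments are also transcribed, as germline transcripts, around the time at which a locus opens for recombination. In mice most mature B cells carry a kappa chain and few carry a lambda chain.

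Defining markers of B cell precursors were present in all 10 libraries: Cd79a at 2541 to 3687 CPM (reads of a gene scaled to the library's total, not corrected for gene length), Vpreb1 at 813 to 1593 CPM, Pax5 at 759 to 1663 CPM and Ebf1 at 460 to 869 CPM. Libraries held between 17849661 and 22572131 reads assigned to genes. Poly(A:U) was compared with PBS by edgeR's quasi-likelihood test over 13729 genes, of which 0% were called at an adjusted p of 0.05. The names of some libraries share parts whose meaning is not given in the sources used here: PBS 1, PBS 2 and PBS 3 share the start CNT-sort, which no Poly(A:U) library has. PBS 4 and Poly(A:U) 5 share R676, PBS 5 and Poly(A:U) 1 share R650, Poly(A:U) 3 and Poly(A:U) 4 share R659, and Poly(A:U) 2 has R651. Neutrophil markers summed to between 692 and 1039 CPM in PBS 1 to PBS 3 and to between 29.3 and 260 CPM in the other 7 libraries. The T cell marker sum was highest in PBS 4 at 315 CPM, then Poly(A:U) 5 at 42.3 CPM, with 19.4 to 24.5 CPM elsewhere.

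Reads were found for 130 of the 178 light chain genes in at least 1 library and for 83 in all 10. The other 48, of which 43 were kappa V segments, had none. Only 6 genes reached a mean of 10 CPM (Igkc, Iglc1, Iglc2, Iglc3, Iglv1 and Igkv1-135), and 123 had a mean under 1 CPM. All light chain genes together held 941, 938, 767, 446 and 930 CPM in PBS 1 to PBS 5, and 671, 852, 818, 703 and 403 in Poly(A:U) 1 to Poly(A:U) 5. The 2 lowest totals were those of PBS 4 and Poly(A:U) 5, and the ranges of the groups overlapped, with means of 805 ± 213 and 690 ± 177 CPM (SD, n = 5 in each group).

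Igkc, the kappa constant gene that every spliced kappa transcript contains, lies on the plus strand at chr6:70726435-70726966 (GRCm38) and was the most abundant member. Its level was 568, 582, 483, 260 and 592 CPM in PBS 1 to PBS 5. In Poly(A:U) 1 to Poly(A:U) 5 it was 425, 578, 512, 421 and 207 CPM. The groups overlapped along most of their range, and in each group 1 library, again PBS 4 and Poly(A:U) 5, lay far under the other 4. The group means were 497 ± 139 and 429 ± 140 CPM. The log2 fold change was -0.22 ± 0.29 (SE), with a 95% interval from -0.86 to 0.42 and an adjusted p of 0.843 by edgeR. Without PBS 1 to PBS 3, with PBS 4 and PBS 5 as the only controls, the log2 fold change was -0.0016. Within the name parts that both groups share, Igkc was at 260 CPM with PBS and 207 CPM with Poly(A:U) for R676, and at 592 and 425 CPM for R650, with 1 library on each side. The sample-to-sample variation of Igkc was far beyond counting error, with a coefficient of variation of 29.5% over the 10 libraries where counting alone would give 1.04%. In bulk RNA, fewer cells that express a gene and less RNA per cell cannot be told apart. In TPM, the scale that is also corrected for transcript length, Igkc ran from 774 to 2036, and Igll1, the surrogate light chain gene, from 1271 to 2790. Igll1 stood above Igkc in every library, by a ratio of TPM between 1.08 in PBS 5 and 2.41 in Poly(A:U) 5.

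The lambda constant genes Iglc1 and Iglc3 were steadier than Igkc. Iglc1 (chr16:19061618-19062071, minus strand) averaged 45.5 ± 5.78 CPM with PBS and 43.9 ± 5.97 CPM with Poly(A:U), and its lowest and highest libraries were at 34.6 and 53.1 CPM. Iglc3 (chr16:19065230-19065681, minus strand) averaged 53.2 ± 8.39 and 54.9 ± 6.43 CPM. The log2 fold changes were -0.07 ± 0.12 for Iglc1 and 0.02 ± 0.12 for Iglc3, and their 95% intervals, from -0.34 to 0.19 and from -0.25 to 0.29, were the narrowest among the constant genes. Iglc4 was near absence, with at most 0.0492 CPM in any library, under the 0.133 to 0.168 CPM that 3 reads are worth.

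Iglc2 (chr16:19198396-19200351, minus strand) varied much more than its neighbours. It was at 24.2, 20.3, 15.0, 2.06 and 14.0 CPM in PBS 1 to PBS 5 and at 8.69, 11.1, 19.1, 21.8 and 2.14 CPM in Poly(A:U) 1 to Poly(A:U) 5. PBS 4 and Poly(A:U) 5 were again the lowest, and the other 8 libraries of both groups overlapped between 8.69 and 24.2 CPM. The coefficient of variation was 56.5%, against 12.5% for Iglc1 and 13.1% for Iglc3, and the log2 fold change was -0.28 ± 0.68. Without PBS 1 to PBS 3 that value was 0.63, the opposite direction, but the low PBS 4 is then 1 of only 2 controls.

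Iglc2 and Iglc3 are close copies, so their reads may be split imperfectly by the estimation. They are identical at 303 of 314 aligned coding bases (96.5%), and their longest shared run is 79 bases, whereas Iglc1 and Iglc2 are identical at 73.2%. The 100-base coding window that holds most of the differences is shown for both, from the GENCODE transcripts of GRCm38, at chr16:19198749-19198848 and chr16:19065578-19065677 on the minus strand, with the 7 differing bases in capitals.
Iglc2: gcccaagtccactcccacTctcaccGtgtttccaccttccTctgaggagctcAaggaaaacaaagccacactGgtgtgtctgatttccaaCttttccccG
Iglc3: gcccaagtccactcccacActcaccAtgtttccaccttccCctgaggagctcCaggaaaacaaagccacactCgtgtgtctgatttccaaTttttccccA

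Most reads assigned to Iglc2 went to a transcript model that has no V segment. This model (606 bases, 2 exons) begins with an exon of 154 bases at chr16:19200198-19200351, made of 116 bases upstream of Iglj2 and the 38 bases of Iglj2 itself, and is spliced over an intron of 1345 bases to the constant exon. Its estimated reads were 396, 334, 248, 42.0 and 266 in PBS 1 to PBS 5 and 156, 189, 340, 354 and 47.0 in Poly(A:U) 1 to Poly(A:U) 5. The other model of the gene, which holds the constant exon only, had between 0 and 98.4 reads. Both models hold the constant exon, so the split of reads between them is an estimate. Joined V-J transcripts are not in the annotation. Reads across the splice from Iglj2 to the constant exon therefore fit the 2-exon model whether or not a V segment was joined. These counts are thus no measure of RNA without a V segment. Iglc2 made up between 3.06% and 26.1% of the summed TPM of Iglc2 and Iglc3, with the lowest shares in Poly(A:U) 5 and PBS 4 (3.18%).

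**Figure D1:**
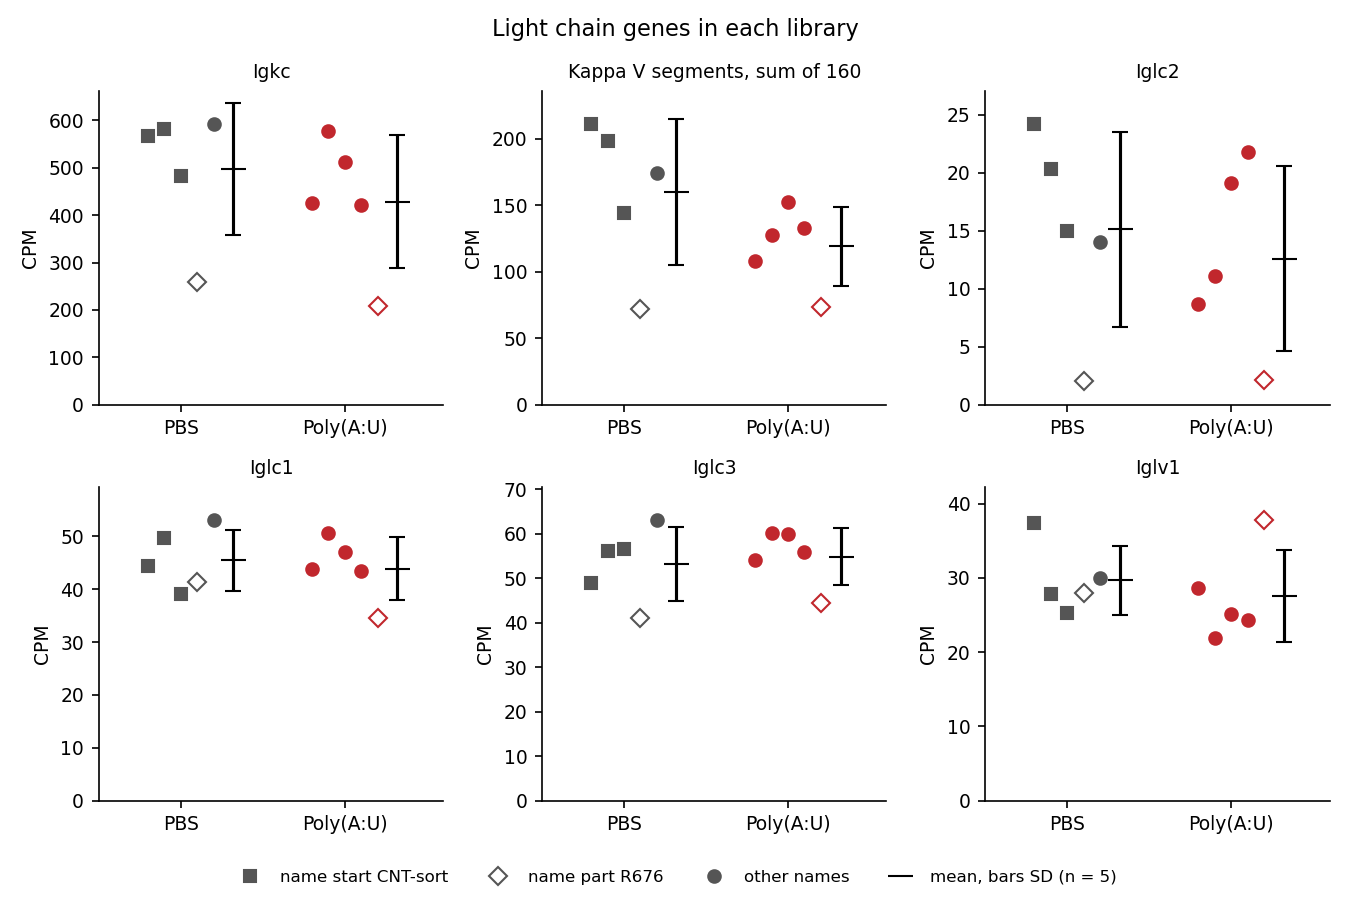
Level in CPM (y axis, from 0) of Igkc, the sum of the 160 kappa V segments, Iglc2, Iglc1, Iglc3 and Iglv1 in each library by group, with group mean and SD (n = 5). Open diamonds are PBS 4 and Poly(A:U) 5, which sit under the other 8 libraries for Igkc (260 and 207 CPM), the kappa V sum, Iglc2 and Iglc3 but not for Iglv1; squares are PBS 1 to PBS 3.

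Among the 3 lambda V segments, Iglv1 was by far the most abundant. Iglv1 (chr16:19085017-19085500), the V segment that lies next to Iglc3 and Iglc1 in the locus, was at 37.4, 27.8, 25.3, 28.0 and 30.0 CPM in PBS 1 to PBS 5 and at 28.6, 21.9, 25.2, 24.4 and 37.8 CPM in Poly(A:U) 1 to Poly(A:U) 5. The groups overlapped, and Poly(A:U) 5, lowest for Igkc, was highest here. The log2 fold change was -0.14 ± 0.14. Iglv2 (chr16:19260401-19260859) and Iglv3 (chr16:19241207-19241690), upstream of Iglc2, averaged 14.7 ± 8.86 and 6.08 ± 3.21 TPM over the 10 libraries, against 152 ± 39.2 TPM for Iglv1. Iglv2 was at 5.37, 3.81 and 3.36 CPM in PBS 1 to PBS 3 and between 1.08 and 2.33 CPM in the other 7 libraries of both groups. Its log2 fold change was -0.83 ± 0.37 (unadjusted p = 0.0468, adjusted p = 0.68 by edgeR), and 0.21 without PBS 1 to PBS 3. Summed lambda V TPM was between 0.256 and 0.652 of summed lambda constant TPM.

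Of the 160 kappa V segments, 117 had reads in at least 1 library and 76 in all 10. They spread over chr6:67555497-70704177, all upstream of Igkc, with 75 on the strand of Igkc and 85 on the opposite strand; segments on the opposite strand are known to join by inversion and the others by deletion. The annotation calls 60 of them pseudogenes. Of the 100 others, 99 had reads, the exception being Igkv1-131, whereas reads were found for 18 of the 60 pseudogenes and these held between 1.06% and 2.08% of kappa V TPM. The most abundant pseudogene, Igkv4-77, averaged 2.90 TPM, and no pseudogene passed the filter for the test.

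Several kappa V segments contributed in every library, and no single one dominated. The effective number of segments, the exponential of the Shannon entropy of the kappa V reads, was between 44.8 (Poly(A:U) 5) and 58.6 (PBS 5). Its group means were 51.8 ± 4.43 with PBS and 53.3 ± 5.30 with Poly(A:U). The leading segment held between 6.64% and 9.52% of kappa V reads, and it was Igkv1-135 in 5 libraries, Igkv1-117 in 2 and Igkv1-110, Igkv14-111 and Igkv19-93 in 1 library each. The 5 leading segments of a library held between 26.4% and 34.5%. These shares rest on between 1470 kappa V reads (PBS 4) and 4319 (PBS 1) per library.

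The 12 segments of highest mean TPM came from 8 families, the family being the first number of a segment's name. Igkv1-135 (chr6:67609713-67610508), 3116 kb upstream of Igkc and near the far end of the locus, averaged 53.1 ± 20.8 TPM over the 10 libraries. Igkv19-93 (chr6:68736297-68736780) followed with 48.4 ± 18.2 TPM, Igkv1-117 with 42.9 ± 20.3, Igkv1-110 with 41.9 ± 25.3 and Igkv14-111 with 36.6 ± 7.13. Neighbours in this order did not differ beyond their spread. Igkv4-59 and Igkv10-96 (both 26.8 TPM), Igkv4-57 (22.6 TPM), Igkv8-27 (18.8 TPM), Igkv4-53 (16.7 TPM), Igkv5-48 (15.5 TPM) and Igkv2-109 (15.1 TPM) completed the 12. Family 4, with 33 segments, held 23.2% of kappa V TPM on average (19.3% to 28.2%), and family 1, with 13 segments, held 19.1% (14.9% to 24.1%). Family 13, with 18 segments, held 0.234%.

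Igkv1-117 and Igkv1-110 may share reads, since they are identical at 349 of 359 aligned coding bases (97.2%) with a longest shared run of 142 bases. The 100-base coding window with most differences is shown at chr6:68121558-68121657 and chr6:68270998-68271097 on the plus strand, from the GENCODE transcripts of GRCm38, with the 5 differing bases in capitals.
Igkv1-117: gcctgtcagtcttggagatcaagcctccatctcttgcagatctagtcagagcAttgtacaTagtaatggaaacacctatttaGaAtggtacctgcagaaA
Igkv1-110: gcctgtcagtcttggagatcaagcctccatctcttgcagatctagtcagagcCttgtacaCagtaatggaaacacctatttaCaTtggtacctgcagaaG

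Segments from the whole length of the kappa locus were read out. The 50 segments within 1000 kb of Igkc held 30.4% of kappa V TPM on average (23.2% to 36.7%), the 57 segments between 1000 and 2000 kb held 31.5% (27.8% to 37.6%), and the 53 beyond 2000 kb held 38.1% (34.8% to 41.7%). In terms of segments that are not pseudogenes, these stretches contain 40, 31 and 29. The segments on the opposite strand to Igkc held between 56.5% and 62.2% of kappa V TPM, and they are 62 of the 100 that are not pseudogenes. Summed kappa V TPM was between 0.384 and 0.655 of Igkc TPM.

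**Figure D2:**
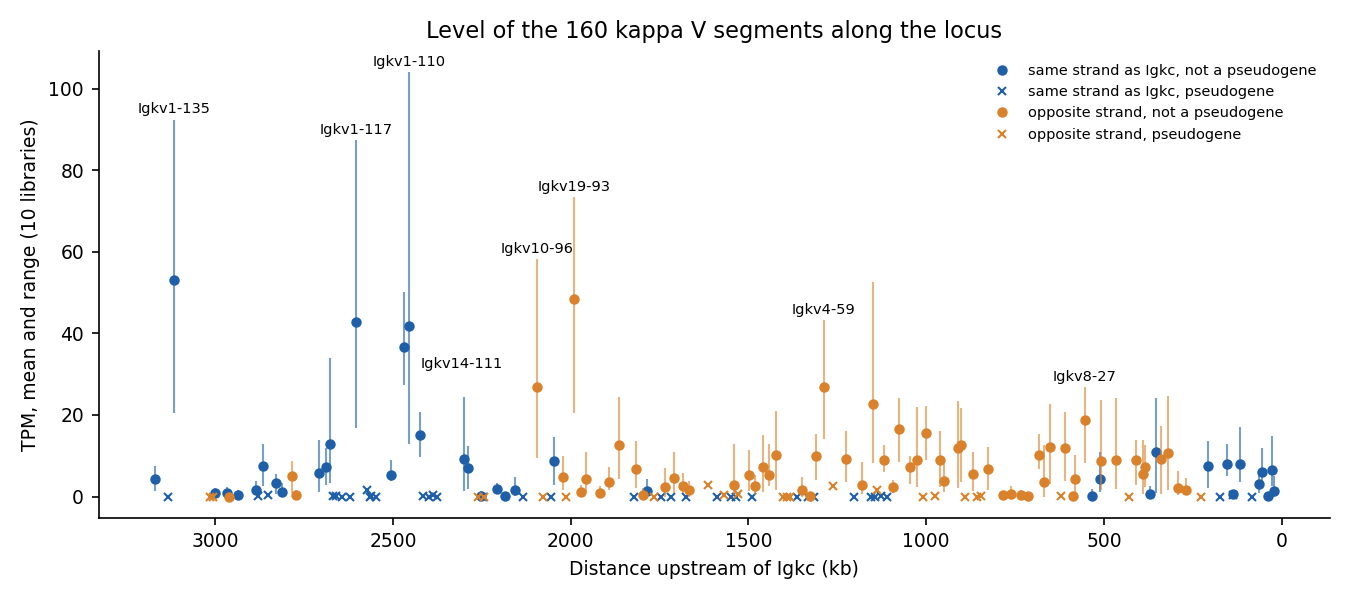
Mean TPM (points) and range over the 10 libraries (lines) of the 160 kappa V segments against their distance upstream of Igkc in kb, by strand, with crosses for pseudogenes. The 5 highest means, from 36.6 TPM for Igkv14-111 to 53.1 TPM for Igkv1-135, lie between 1990 and 3116 kb from Igkc, and the pseudogenes lie near 0.

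**Figure D3:**
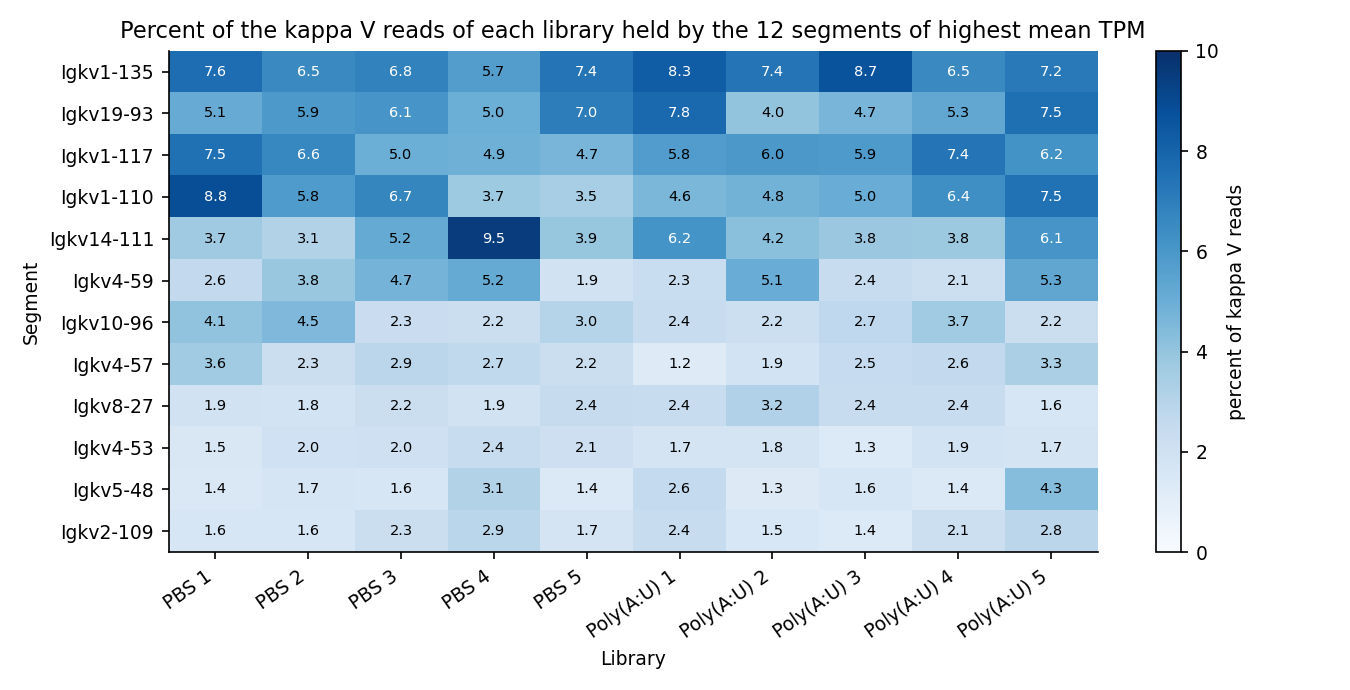
Percent of the kappa V reads of each library (columns) held by each of the 12 segments of highest mean TPM (rows), with darker blue for a higher percent. The highest value is 9.52% for Igkv14-111 in PBS 4, and Igkv1-135 holds between 5.71% and 8.67% in all 10 libraries.

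The J segments were close to unmeasured. They are 38 to 42 bases long in the transcripts shown here, and at most 3 reads were assigned to any of them in a library. Igkj1 had 2 reads in PBS 5 and 3 in Poly(A:U) 3, Igkj2 had 2 in PBS 1 and 1 in Poly(A:U) 2, and Igkj5 had 2 in PBS 3. Iglj1 and Iglj3 had 1 read each, in Poly(A:U) 2 and Poly(A:U) 4, and Igkj3, Igkj4, Iglj2, Iglj3p and Iglj4 had none, which allows a level of up to 0.133 to 0.168 CPM per library for counting error only. Iglj2 also lies inside the first exon of the 2-exon Iglc2 model, so a count of 0 for Iglj2 is no measure of its RNA. No J usage could therefore be compared. The sequences of the 10 segments, from the GENCODE transcripts of GRCm38, are given to show how short and alike they are. Capitals mark the motif TTCGG, searched on the strand of the gene only, which lies where the conserved phenylalanine and glycine of a J segment are coded and was found in 8 of the 10.
Igkj1: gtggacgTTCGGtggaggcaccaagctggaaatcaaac
Igkj2: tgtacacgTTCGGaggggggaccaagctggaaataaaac
Igkj3: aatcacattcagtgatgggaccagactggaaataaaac
Igkj4: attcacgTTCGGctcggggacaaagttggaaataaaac
Igkj5: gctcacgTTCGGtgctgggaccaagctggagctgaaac
Iglj1: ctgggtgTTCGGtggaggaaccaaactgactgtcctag
Iglj2: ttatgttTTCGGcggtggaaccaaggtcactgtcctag
Iglj3: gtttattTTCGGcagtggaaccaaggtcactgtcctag
Iglj3p: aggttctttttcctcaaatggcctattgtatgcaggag
Iglj4: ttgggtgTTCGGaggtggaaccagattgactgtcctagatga

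The balance of the loci lay between 78.8% and 83.1% kappa reads except in 2 libraries. Kappa genes held 82.7%, 83.1%, 81.7%, 74.4% and 82.4% of light chain reads in PBS 1 to PBS 5 and 79.5%, 82.9%, 81.2%, 78.8% and 69.7% in Poly(A:U) 1 to Poly(A:U) 5. PBS 4 (95% exact binomial interval 73.5% to 75.3%, counting error only) and Poly(A:U) 5 (68.7% to 70.6%) lay under all others, the next being Poly(A:U) 4 (78.1% to 79.6%). The interval of Poly(A:U) 4 did not reach that of PBS 2 (82.6% to 83.7%), so the other libraries also differed beyond counting error. The group means were 80.9% ± 3.65 and 78.4% ± 5.13, a difference smaller than the spread within either group. From the TPM of the constant genes alone, the kappa share was between 67.0% and 80.1%.

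In the comparison of Poly(A:U) with PBS, 70 light chain genes passed the filter on low counts: 63 kappa V segments, Igkc, 3 lambda V segments and 3 lambda constant genes. None was called by edgeR, the smallest adjusted p being 0.677, where 0% of all genes were called. An unadjusted p under 0.05 was found for 7, all lower with Poly(A:U), where 3.19% of all genes tested had such a p and were lower. That number was unstable: it was 22 without PBS 4, where the smallest adjusted p was 0.214, and 2 without PBS 1 or without Poly(A:U) 1. No light chain gene had groups that did not overlap, against 0.947% of all genes tested. DESeq2's Wald test called 0 light chain genes and 13 genes in all. Limma voom with quality weights called 2 light chain genes, Iglv2 (-1.14) and Igkv4-53 (-0.71), both lower, where it called 6.34% of all genes tested.

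The fitted differences of the light chain genes nevertheless lay mostly on one side. The log2 fold change was negative for 61 of the 70, with a median of -0.38, where 50.6% of all genes tested were negative with a median of -0.002. For the kappa V segments it was negative for 55 of 63 with a median of -0.39, and it ran from -1.17 to 0.66. These genes share libraries and cells, so the count is no count of independent events. It changed with PBS 1 to PBS 3: without them 41 of the 76 light chain genes then tested were negative, with a median of -0.01. A fit with a term for CNT-sort gave 39 of 70 negative, with a median of -0.02. That term takes up PBS 1 to PBS 3, so PBS 4 and PBS 5 are again the only controls for treatment. The near-equal result is therefore no separate check. With the name parts CNT, R676 and R650 together as terms, 56 of 70 were negative, with a median of -0.35. That fit compares treatment only within the R676 pair and the R650 pair, with 1 library on each side. As no Poly(A:U) library has the CNT-sort start, its part can be separated from treatment only through PBS 4 and PBS 5. Macrophage markers, at 137 to 167 CPM in PBS 1 to PBS 3, 194 CPM in PBS 4 and 40.7 to 61.3 CPM in the other 6 libraries, moved with this split apart from PBS 4, as did the neutrophil markers in all 10. Erythroid markers were lowest in PBS 1 to PBS 3, at 138 to 432 CPM, against 1354 to 12302 CPM elsewhere. Their part in the light chain result was not tested.

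**Figure D4:**
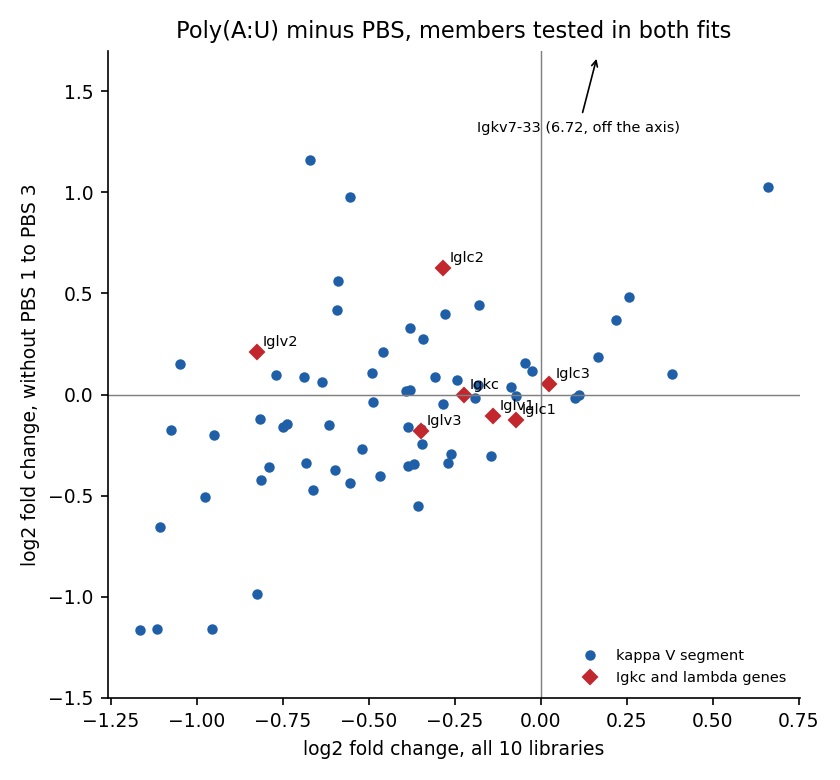
Log2 fold change (Poly(A:U) minus PBS, edgeR) of the 70 light chain genes tested in both fits, with all 10 libraries (x axis) and without PBS 1 to PBS 3 (y axis). On the y axis the only controls are PBS 4 and PBS 5. Of the 70, 61 are negative on the x axis and 39 on the y axis; Igkv7-33, with 0 reads in PBS 4 and PBS 5, is marked beyond the end of the y axis because its fitted value of 6.72 depends on those zeros.

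The 5 light chain genes of smallest unadjusted p were all kappa V segments. Igkv1-88 was at 3.66, 4.03, 2.03, 1.38 and 2.55 CPM in PBS 1 to PBS 5 and at 1.34, 0.797, 2.46, 1.40 and 1.05 CPM in Poly(A:U) 1 to Poly(A:U) 5. Its groups overlapped between 1.38 and 2.46 CPM, and the log2 fold change was -0.98 ± 0.36 (unadjusted p = 0.0185, adjusted p = 0.677 by edgeR). Igkv14-111 was the most even of the abundant segments, at 7.77, 6.16, 7.46, 6.88 and 6.83 CPM with PBS and 6.69, 5.36, 5.82, 4.99 and 4.47 CPM with Poly(A:U). Only Poly(A:U) 1 reached into the PBS range. The difference was small, with a log2 fold change of -0.39 ± 0.16 and the same adjusted p. The values for Igkv3-7, Igkv4-69 and Igkv4-53 were -0.96 ± 0.36, -0.95 ± 0.42 and -0.66 ± 0.27. Among the other abundant segments, Igkv1-110 ranged from 2.70 CPM in PBS 4 to 18.7 CPM in PBS 1, with a log2 fold change of -0.59 ± 0.40 that was 0.56 without PBS 1 to PBS 3. Igkv1-135 had a log2 fold change of -0.31 ± 0.32, Igkv19-93 of -0.52 ± 0.28 and Igkv10-96 of -0.82 ± 0.43. The 95% interval of a kappa V segment reached 0.96 to either side of its estimate at the median, so differences under that size were not detectable for many segments.

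The clearest pattern among libraries followed neither treatment nor the CNT-sort start: light chain genes were low in PBS 4 and Poly(A:U) 5. This pair was singled out after its values were seen, so what follows is a description. Both libraries lay below the other 8 for 37 of the 70 tested light chain genes (34 kappa V segments, Igkc, Iglc2 and Iglc3), where 7.66% of all genes tested did so. Both lay above the other 8 for none, against 9.55% of all genes. The median log2 ratio of the pair to the other 8 was -1.28 over the light chain genes and 0.02 over all genes tested. Kappa V segments summed to 72.3 and 73.7 CPM in PBS 4 and Poly(A:U) 5 and to between 108 and 211 CPM in the others.

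The genes differed in how low they were in this pair. Among the constant genes tested and the 12 abundant kappa V segments, Iglc2 was lowest in proportion, at 0.125 of its mean in the other 8 libraries, followed by Igkv10-96 (0.324), Igkv8-27 (0.360), Igkv1-135 (0.410), Igkv1-117 (0.421) and Igkc (0.449). Iglc3 (0.752) and Iglc1 (0.818) were closer to the others. Iglv1 (1.19), Igkv5-48 (1.10) and Igkv4-58 (1.24) were not lower by the mean of the pair, and Igkv14-111 was at 0.889. For Igkv5-48 the 2 libraries differed, with 46 estimated reads in PBS 4 and 70 in Poly(A:U) 5. With this pair left out of the treatment comparison, 59 of the 70 genes tested were negative, with a median of -0.44. None was called by edgeR, but 17 had an unadjusted p under 0.05, and the smallest adjusted p was 0.108. When PBS 4 alone was left out, 67 of 72 were negative with a median of -0.58.

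Genes of the light chain pathway did not all move the same way in the pair. All 7 genes of the surrogate light chain and pre-B cell receptor list were below the other 8 libraries in both, as were 7.66% of all genes tested. Igll1 was at 793 and 986 CPM in PBS 4 and Poly(A:U) 5 and between 1253 and 1676 CPM elsewhere. Ighm was at 2706 and 2723 CPM against 3415 to 4468 CPM, and Cd79a at 2541 and 2588 CPM against 3161 to 3687 CPM. Among the recombination and enhancer factors, Spib (403 and 424 CPM against 522 to 714 CPM) and Tcf3 (699 and 732 CPM against 828 to 943 CPM) were also lower. So were Spi1 (60.9 and 51.1 CPM against 62.3 to 86.0 CPM), Pou2f2 (38.1 and 49.4 CPM against 58.2 to 79.4 CPM) and, barely, Rela (97.2 CPM in both against 97.3 to 112 CPM). Pax5 (759 and 1396 CPM) and Ebf1 (460 and 767 CPM) were not below the others in both. Dntt, which encodes terminal transferase, the enzyme that adds bases at junctions of early precursors, was higher, at 158 and 159 CPM against 57.8 to 101 CPM. The recombinase genes were not lowest in both: Rag1 was at 446 and 789 CPM, within the range of the others (430 to 913 CPM), and Rag2 at 148 and 212 CPM. Of the mature B cell markers, Fcer2a (CD23) was at 3.29 and 3.97 CPM in the pair and between 7.47 and 19.2 CPM in the others, Cd40 at 7.13 and 7.62 CPM against 15.6 to 22.9 CPM, and Cd74, the invariant chain of class II presentation, at 64.9 and 38.1 CPM against 76.7 to 217 CPM. All 14 mature B cell markers of the list were detected, with sums of 1812 and 2046 CPM in the pair and 2361 to 2700 CPM in the others. The T cell marker sum was also highest in this pair. The part of these markers in the light chain levels was not tested.

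Markers of plasma cells, which hold very large amounts of light chain RNA, were mixed. Ighg1 and Igha, constant genes of switched antibody classes, were at most 0.111 and 0.0977 CPM in any library. Ighg2b was between 1.57 and 6.34 CPM, and Ighg3 was between 2.45 and 2.83 CPM in PBS 1 to PBS 3 and between 0.295 and 1.14 CPM elsewhere. Sdc1, the plasma cell surface marker CD138, was between 3.36 and 7.23 CPM. Jchain, which encodes the joining chain of secreted antibody, was at 63.0, 36.5 and 30.0 CPM in PBS 1 to PBS 3 and between 2.36 and 18.5 CPM in the other 7 libraries. The sum of the 14 plasma cell markers, between 986 and 1296 CPM, was mostly Mzb1 and Slamf7. Jchain and Ighg3 were thus higher with the CNT-sort start, but other markers of the list were lower there. Xbp1 was at 55.8, 56.6 and 63.4 CPM in PBS 1 to PBS 3 and between 76.1 and 103 CPM elsewhere. Sdc1 was also lowest there, at 3.57, 3.59 and 3.36 CPM. The part of these markers in the light chain levels of those libraries was not tested.

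In the treatment comparison the pathway lists gave no call by edgeR. Of the 7 genes of the surrogate light chain and pre-B cell receptor list, 5 had negative log2 fold changes, with a median of -0.03, Igll1 at -0.04 ± 0.19 and Ighm, the most abundant, at -0.14 ± 0.15. Over all genes tested, 50.6% were negative, with a median of -0.002. Of the 22 recombination and enhancer factors, 20 were negative, with a median of -0.12. They included Pax5, the factor of B cell identity and the most abundant of them (-0.26 ± 0.17), and Cxcr4, the chemokine receptor that guides pre-B cells towards light chain recombination (-0.35 ± 0.09). Rag2 (0.28 ± 0.09) and Irf4, a factor that binds light chain enhancers (0.09 ± 0.13), were the 2 positive ones. Libraries with the CNT-sort start held 1371 to 1663 CPM of Pax5, whereas PBS 4 held 759 CPM and PBS 5 held 1257 CPM. With Poly(A:U), Pax5 ran from 906 to 1396 CPM. Ebf1 and Foxo1 were highest in the CNT-sort libraries. Cxcr4 did not follow that start: its lowest PBS value, 294 CPM in PBS 4, lay above its highest Poly(A:U) value of 286 CPM. Such groups without overlap were found for 0.947% of all genes tested, and the adjusted p of Cxcr4 was 0.677 by edgeR. The part of the CNT-sort start in the 20 negative values was not tested. Of the mature B cell markers 10 of 14 were negative, and of the 10 plasma cell markers tested 7. Genes of a list share libraries and cells, so these counts are no counts of independent events.

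Over the 10 libraries, the members closest to Igkc in log2 CPM were Igkv8-27 (Pearson r = 0.985), Igkv4-86 (0.951), Igkv16-104 (0.939), Igkv12-44 (0.923) and Igkv5-43 (0.899). The 10 closest genes outside the light chain loci had r between 0.941 and 0.967 and were Narfl, Gm5914, Acd, Stx5a, Map4k1, Pld4, Particl, Hvcn1, Grap and Clk3. Leaving out PBS 5, the library highest in Igkc, left these 10 between 0.937 and 0.976 over 9 libraries. Without PBS 4 and Poly(A:U) 5 they were between 0.59 and 0.874 over 8 libraries, and Igkv8-27, Igkv16-104, Igkv4-86, Igkv12-44 and Igkv5-43 were at 0.909, 0.877, 0.856, 0.597 and 0.481, so much of the likeness rests on these 2 low libraries. These values describe likeness across libraries that share depth, cell content and preparation, with no test.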

How the data were processed

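RNA sequencing libraries of 10 samples, 5 from PBS and 5 from Poly(A:U) pups, were used. The authors deposited estimated counts of reads per transcript with TPM values, per the file headers. Per the submitters' processing notes, DRAGEN and edgeR 3.38.4 were used with build mm10. No annotation release, counter setting or use of strand is given in the sources used here. A second file, the authors' normalized signal per gene, held 70 light chain genes, and CPM computed here correlated with it across genes at r = 0.997 or more in every library.

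Transcripts were assigned to genes with GENCODE M21 (GRCm38), which left 538 of 142333 transcripts and at most 0.0695% of reads unassigned. Estimated counts were summed per gene and rounded. CPM is relative to assigned reads, without TMM factors. The annotation holds germline segments, so joined V-J transcripts are not in it, and reads of near-identical segments were shared out by the authors' estimation.

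Genes were filtered by edgeR's filterByExpr (minimum count of 10) and tested with edgeR 4.0.16 (R 4.3.3), quasi-likelihood, TMM factors, treatment as the only term, two-sided, Benjamini-Hochberg over all genes tested. A negative log2 fold change means lower with Poly(A:U). Alternatives used DESeq2 1.42.0 and limma 3.58.1. Sums and shares over members were described without a test. The fit was first tested on simulated data. Exact binomial intervals (95%) and the floor of 3 reads cover counting error only.

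Named were all constant, lambda V and J members, the 12 kappa V segments of highest mean TPM, the leading segment of each library, the 5 members of smallest unadjusted p, list genes that were abundant or that a result turned on, and the 10 genes most correlated with Igkc. Igkv1-131, Igkv4-58, Igkv4-77 and Igkv7-33 were added after their values were seen. A gene of the B cell precursor marker list is not reported here. The members and lists were chosen with earlier results of these data known.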

Additional observations from a re-analysis of the deposited data

Results flagged for a closer look

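In 66 groups of 5 values screened, 3 had a library whose gap to its nearest neighbour was more than 0.71 of the range of the group; chance flags about 1 in 20 groups, so about this many would be flagged by chance. The kappa share of light chain reads in PBS 4, 74.4%, stood apart from the other 4 PBS libraries (81.7% to 83.1%). Igkv2-109 was at 2.06 CPM in PBS 4, where the other PBS libraries were between 3.02 and 3.32 CPM. Igkv4-69 was at 0.840 CPM in Poly(A:U) 4, where the other Poly(A:U) libraries were between 0.443 and 0.557 CPM.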

How the results depend on the processing

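Calls over all genes were 0 by edgeR, 13 by DESeq2's Wald test, 870 by limma voom with quality weights and 2 with the name parts CNT, R676 and R650 as terms (an alternative chosen after seeing the data, as were those with R676), and 0 to 18 when 1 library was left out, the 18 without PBS 5. Light chain genes called were 2 by voom and 0 under every other setting run. Without PBS 1 to PBS 3, log2 fold changes turned positive for Iglc2 (0.63), Igkv1-110 (0.56), Igkv1-117 (0.33), Iglv2 (0.21), Igkv4-59 (0.11), Igkv1-135 (0.089) and Igkv8-27 (0.047). A fit with a term for CNT-sort gave 0.62, 0.55, 0.32, 0.21, 0.11, 0.085 and 0.042 in that order. Both fits compare Poly(A:U) with PBS 4 and PBS 5 only, so the CNT-sort term is no separate check. With CNT, R676 and R650 as terms, treatment is compared only within the R676 pair and the R650 pair. There Iglv2 (0.36), Igkv1-110 (0.30), Igkv5-48 (0.29), Iglv3 (0.15) and Iglv1 (0.13) turned positive and Iglc3 negative (-0.11). The causes were not tested. Leaving out 1 library at a time gave -0.38 to -0.05 for Igkc, -0.15 to 0.0044 for Iglc1, -0.049 to 0.094 for Iglc3 and -0.38 to 0.016 for Igkv8-27, so the direction of the last 3 is not settled; the kappa share differed between the groups by -4.07 to -0.27 percentage points, against -2.45 with all libraries. With the replicate number as a block 0 genes and 0 light chain genes were called, and 2 light chain genes had an unadjusted p under 0.05 against 7 without the block; correlations of same-numbered deviations, from -0.18 to 0.14, did not show that the numbers pair the pups, and not every library correlated best with its own number. At a minimum of 10 CPM only 5 light chain genes were left, so 17 of the named members have no value there. The J segments, with at most 3 reads, were left without a test. Depth is not the only limit, as their annotated transcripts are very short and joined V-J transcripts are not in the annotation.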
